A study of Mus musculus with 6 samples.

Results

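The genes described here encode the subunits, assembly factors and regulators of the proteasome. They were chosen by name, as rows whose symbol is Psma, Psmb, Psmc, Psmd, Psme, Psmf or Psmg followed by a number. The immunoproteasome genes Psmb8, Psmb9 and Psmb10 were left out. The rule found 45 genes among 47561 rows of the count tables, and 44 of them passed the filter on low counts, among 16022 rows that did.

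Bulk RNA was sequenced from LT-HSCs that had been sorted out of mouse bone marrow, the long-term blood-forming stem cells. The 3 KO libraries carry titles that say Piezo1 KO, and the 3 control libraries have the genotype label WT. Piezo1 encodes a calcium-permeable channel that mechanical force opens. KO replicates 2 and 3 have genotype labels that name Piezo2 and Piezo3 instead, and here the titles set the groups. The labels name no allele, Cre driver, age or number of mice, so the spread between libraries may be technical.

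The proteasome is the protease complex that degrades proteins tagged with ubiquitin. Its barrel-shaped core is built of rings of alpha and beta subunits, and the beta subunits carry the catalytic sites. A regulatory particle caps the core: its base holds a ring of ATPases that unfolds substrates, and its lid removes ubiquitin. Other activators can replace the regulatory particle, and dedicated chaperones help to assemble core and base. In many cell types the transcription factor encoded by Nfe2l1 raises proteasome genes when proteasome activity is limiting. Blood stem cells make protein slowly and are known to depend on protein quality control.

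Total counts lay between 59435258 and 60027480 in KO libraries and between 60589306 and 64653956 in control libraries. Levels are given as CPM, counts scaled to a common library size by the trimmed mean of M values. Mean Piezo1 was 7.24 ± 2.67 CPM in KO, against 16.1 ± 8.66 CPM in control libraries (SD, n = 3 each), a log2 fold change of -1.15 (SE 0.56, edgeR quasi-likelihood adjusted p = 0.508). It was -0.73 without control replicate 3, -1.53 without control replicate 2 and -1.84 with the trends on transcript length and GC removed. Log2 fold changes here are KO over control throughout. The library labelled control replicate 2 held 7.02 CPM of Piezo1, less than KO replicates 2 and 3 with 7.99 and 9.46 CPM. The group values below rest on the label of this library. Without it the median log2 fold change of the tested proteasome genes was -0.45, and 40 of 44 were below 0. All 13 stem and progenitor markers listed passed the filter, among them Kit, Hlf and Mecom, and their summed level was 969 to 1201 CPM in KO and 1028 to 1443 CPM in control libraries. Within this list Kit was 293 to 344 CPM in KO and 106 to 226 CPM in control libraries, and Ly6a was 72.8 to 207 CPM in KO and 284 to 373 CPM in control libraries. Neither overlapped, and 1 of the 13 was higher and 2 were lower at an unadjusted p under 0.05, against 5.44% and 5.59% of all tested genes. Transcripts of other lineages were present too, with the platelet marker Gp6 at 0 in every library. The summed level of 10 erythroid markers was 8327 to 26440 CPM in KO and 2642 to 7736 CPM in control libraries, that of 7 megakaryocyte and platelet markers 1671 to 2486 CPM in KO and 772 to 1041 CPM in control libraries, and that of 10 granulocyte markers 120.2 to 1157 CPM in KO and 176 to 11740 CPM in control libraries, with the highest value in control replicate 3. In the erythroid sum the 4 globin genes were higher in KO at an unadjusted p under 0.05, while Car1 was lower, with 1595, 697 and 1057 CPM in KO and 3070, 1186 and 3524 CPM in control libraries. The summed level of 6 T and NK markers was 246 to 270 CPM in KO and 129 to 209 CPM in control libraries, most of it from Nkg7. Sums of the monocyte and macrophage, B lineage, and stroma and endothelium markers overlapped between the groups. The part of these differences in the results below was not tested. In bulk RNA, fewer cells of a type and less RNA per cell cannot be told apart.

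The promoters of proteasome genes are shown first, for the members whose measured difference had the smallest p: Psmd5, the 3 leading members of base and lid, and the 2 leading members of the core, among members with a single window. The windows are from RefSeq on GRCm38.p6 and run from 250 bases before to 50 bases after the start. Their positions are chr2:34870913-34871212 (- strand) for Psmd5, chr3:95042565-95042864 (- strand) for Psmd4, chr7:28050043-28050342 (- strand) for Psmc4, chr12:100109952-100110251 (+ strand) for Psmc1, chr7:114276067-114276366 (- strand) for Psma1, chr3:94886909-94887208 (- strand) for Psmb4. Capitals mark matches to the core of the ETS factor site, CCGGAAG, and to the CCAAT box, each on either strand; Psmd5, Psmc4 and Psmb4 hold neither.
Psmd5: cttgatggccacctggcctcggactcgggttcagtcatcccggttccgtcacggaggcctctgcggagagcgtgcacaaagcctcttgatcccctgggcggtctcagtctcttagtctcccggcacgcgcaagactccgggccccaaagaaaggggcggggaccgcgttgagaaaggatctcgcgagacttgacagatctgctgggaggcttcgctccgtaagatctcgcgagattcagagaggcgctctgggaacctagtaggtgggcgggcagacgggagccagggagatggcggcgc
Psmd4: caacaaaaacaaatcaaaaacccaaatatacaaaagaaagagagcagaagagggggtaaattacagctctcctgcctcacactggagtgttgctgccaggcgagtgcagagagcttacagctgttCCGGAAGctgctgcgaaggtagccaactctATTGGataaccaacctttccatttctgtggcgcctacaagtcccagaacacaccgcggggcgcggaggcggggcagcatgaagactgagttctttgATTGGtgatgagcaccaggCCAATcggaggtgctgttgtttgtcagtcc
Psmc4: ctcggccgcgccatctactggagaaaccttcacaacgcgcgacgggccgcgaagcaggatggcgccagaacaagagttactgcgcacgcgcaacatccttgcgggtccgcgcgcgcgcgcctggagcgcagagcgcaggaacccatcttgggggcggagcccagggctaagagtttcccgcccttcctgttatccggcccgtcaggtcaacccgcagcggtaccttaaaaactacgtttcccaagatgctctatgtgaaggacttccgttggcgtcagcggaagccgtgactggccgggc
Psmc1: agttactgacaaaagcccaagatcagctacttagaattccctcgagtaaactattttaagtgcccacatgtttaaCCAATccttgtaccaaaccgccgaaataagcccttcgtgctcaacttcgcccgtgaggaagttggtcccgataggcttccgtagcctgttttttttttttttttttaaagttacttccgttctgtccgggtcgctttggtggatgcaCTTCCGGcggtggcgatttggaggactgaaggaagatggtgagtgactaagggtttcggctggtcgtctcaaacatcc
Psma1: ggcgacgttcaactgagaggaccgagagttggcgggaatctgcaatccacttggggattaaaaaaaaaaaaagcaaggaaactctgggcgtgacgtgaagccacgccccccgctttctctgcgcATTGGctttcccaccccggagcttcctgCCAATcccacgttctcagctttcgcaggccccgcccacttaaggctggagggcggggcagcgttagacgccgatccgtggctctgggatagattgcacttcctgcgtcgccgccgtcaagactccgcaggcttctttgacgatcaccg
Psmb4: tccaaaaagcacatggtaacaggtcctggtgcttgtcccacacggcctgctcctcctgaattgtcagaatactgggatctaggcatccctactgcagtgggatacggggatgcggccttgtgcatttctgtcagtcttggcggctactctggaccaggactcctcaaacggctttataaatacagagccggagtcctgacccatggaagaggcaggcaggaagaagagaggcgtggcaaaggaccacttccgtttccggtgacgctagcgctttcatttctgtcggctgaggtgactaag

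The windows differed in these letters by role. Of the 45 members, 37 had a window, with 40 windows in all. Psma8, Psmb1, Psmb2, Psmb7, Psmc3, Psmd3, Psmd7 and Psmg2 had none in the table. The ETS core stood in 10 of 15 windows of base and lid genes (66.7%) and in 1 of 13 windows of core genes (7.69%), against 16.6% of the windows of all tested genes and 8.86% of all 32851 windows. The 1 core window that held it was the second of the 2 windows of Psma6. Among the base windows, both of the 2 windows of Psmc2 held it, so windows are not separate genes. The CCAAT box stood in 4 of 15 base and lid windows and in 7 of 13 core windows, against 37.9% of the windows of tested genes. These are counts of letters and were not tested.

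The antioxidant response element, TGACNNNGC, is the site through which the factor encoded by Nfe2l1 is known to act. It stood in 6 of 40 member windows (15%), against 14.3% of the windows of tested genes and 12.4% of all windows. The matches are given with up to 10 bases on each side, in capitals, at chr14:54618024-54618052 (- strand) for Psmb5, chr11:70525338-70525366 (+ strand) for Psmb6, chr14:45329587-45329615 (+ strand) for Psmc6, chr11:107479278-107479299 (+ strand) for Psmd12, chr5:123228149-123228177 (+ strand) for Psmd9, chr11:30771758-30771786 (+ strand) for Psme4. In Psmc6, Psmd12 and Psme4 the match is on the opposite strand and reads as its reverse complement.
Psmb5: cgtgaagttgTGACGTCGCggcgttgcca
Psmb6: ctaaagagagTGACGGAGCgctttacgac
Psmc6: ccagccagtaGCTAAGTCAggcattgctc
Psmd12: tctGCTGTGTCAcatttgcccc
Psmd9: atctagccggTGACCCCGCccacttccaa
Psme4: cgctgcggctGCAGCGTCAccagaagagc
The 6 members with a match had a median log2 fold change of -0.35 and the 30 other tested members with a window one of -0.37. Both medians lay close to that of all tested members, -0.37.

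Proteasome transcripts as a whole made up a smaller share of the KO libraries. Their summed level was 11616, 10923 and 10139 CPM in KO replicates 1 to 3, against 14882, 12404 and 15039 CPM in control replicates 1 to 3. The KO libraries lay below all control libraries in this sum, and the ratio of the group means was 0.772. The log2 fold change was below 0 in 42 of 44 tested members (95.5%), where 47.8% of all 16022 tested genes were below 0. The median over the members was -0.37, a level 22.9% lower in KO, and the median over all tested genes was 0.03. Abundant genes as a whole leaned the same way: of 3823 tested genes averaging over 50 CPM, a set chosen after the values were seen, 61.6% were below 0 and the median was -0.13.

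**Figure D1:**
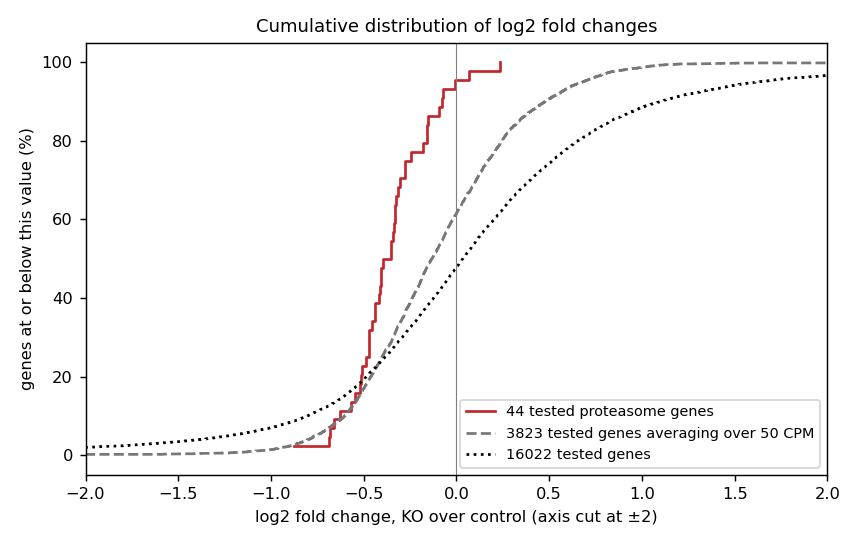
Cumulative share of genes, in percent, by log2 fold change of KO over control, for the 44 tested proteasome genes, the 3823 tested genes averaging over 50 CPM and all 16022 tested genes. The curve of the proteasome genes lies left of the others around its median of -0.37, where the medians of the others are -0.13 and 0.03.

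No member passed an adjusted p under 0.05 in edgeR's quasi-likelihood test, as 0% of all tested genes did in either direction; the lowest adjusted p of a member was 0.255. At an unadjusted p under 0.05, 17 of 44 members were lower in KO (38.6%) and 0 were higher, against 5.59% of all tested genes lower and 5.44% higher, and 14.9% lower among the tested genes averaging over 50 CPM. The 3 KO libraries lay below the 3 control libraries in 20 members (45.5%) and above them in 0, against 8.76% and 10.7% of all tested genes; of the genes over 50 CPM, 18.4% lay below. DESeq2 called 4 members lower at an adjusted p under 0.05 and 0 higher, against 1.92% of genes lower and 1.64% higher, while limma-voom called 0 members. These 4 were Psmd4 (adjusted p = 0.00203), Psmd5 (0.00485), Psmc2 (0.0161) and Psmc4 (0.0186), all of them parts or chaperones of the base. The median SD of log2 CPM of the members was 0.15 among KO and 0.23 among control libraries. It was 0.19 among KO and 0.31 among control libraries for the genes over 50 CPM, and 0.39 and 0.54 for all tested genes.

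The members had shorter transcripts than most genes, with a median of 1490 bases against 2584 bases for the 14339 tested genes with a length. Each library was also freed of its trends against the length and GC content of transcripts. With this done, 37 of 44 members were below 0 and the median was -0.17, against 0.05 for all tested genes. In this fit 5 members were lower and 0 higher at an unadjusted p under 0.05, where 739 of 16022 tested genes were lower. These 5, Psmb3, Psmc2, Psmc4, Psmd4 and Psmd5, were all among the 17. The log2 fold change came closer to 0 by more than 1.5 times in 26 members and changed sign in 7 others, and in 11 it stayed within 1.5 times of its value. These adjusted values are given beside most members below, or at the end for members that changed sign. The others were Psma2 at -0.30, Psma8 at -0.30, Psmd1 at -0.25, Psmd2 at -0.11 and Psmd3 at -0.08. Psmd8 stood at -0.095, Psmd11 at -0.19, Psmg4 at -0.12 and Psmf1 at 0.005.

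**Figure D2:**
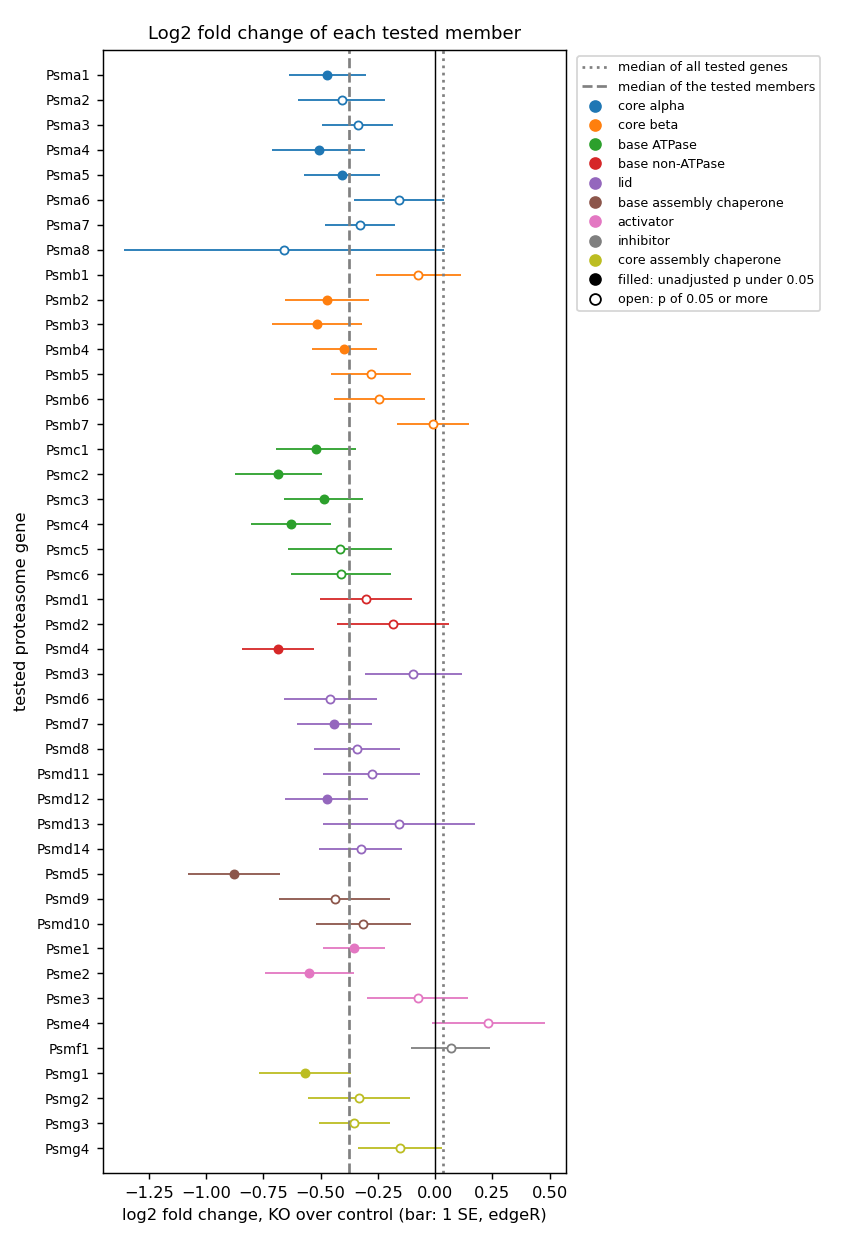
Log2 fold change of KO over control for each of the 44 tested members, coloured by role, with bars of 1 SE and filled points at an unadjusted p under 0.05. All but Psme4 and Psmf1 lie below 0, and Psmd5 lies lowest at -0.88.

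The core particle had all 15 tested subunit genes below 0, with medians of -0.41 over 8 alpha genes and -0.28 over 7 beta genes. At an unadjusted p under 0.05, 3 alpha and 3 beta genes were lower. Psma1, an alpha ring subunit, had 490, 557 and 456 CPM in KO libraries, against 741, 582 and 760 CPM in control libraries. The KO values lay below every control value, and its log2 fold change was -0.47 (SE 0.17, edgeR adjusted p = 0.386). Psmb4, a beta ring subunit, had 456, 432 and 429 CPM in KO, against 593, 520 and 620 CPM in control libraries. All KO values lay below all control values, at -0.40 on the log2 scale (SE 0.14, edgeR adjusted p = 0.389). Psmb3, also of the beta ring, had the largest beta difference at -0.52 (SE 0.20), with 426, 363 and 338 CPM in KO and 562, 420 and 630 CPM in control libraries. KO replicate 1 lay above the library labelled control replicate 2 there, so its groups overlapped. With the length and GC trends removed, Psma1 stood at -0.17, Psmb4 at -0.14 and Psmb3 at -0.37.

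The other core genes without overlap were Psma3, Psma5, Psma7 and Psmb2. Psma3 had 583, 576 and 547 CPM in KO and 757, 607 and 791 CPM in control libraries. Psma5 had 451, 435 and 409 CPM in KO and 609, 472 and 635 CPM in control libraries. Psma7 had 576, 592 and 551 CPM in KO and 719, 624 and 817 CPM in control libraries. In all of these the library labelled control replicate 2 was the control nearest to the KO libraries. Psmb2 had the same pattern, with 435, 462 and 382 CPM in KO and 599, 478 and 695 CPM in control libraries. Their log2 fold changes were -0.34 for Psma3, -0.41 for Psma5, -0.33 for Psma7 and -0.47 for Psmb2, with edgeR adjusted p-values of 0.489, 0.432, 0.494 and 0.413. Psma2 (-0.41), Psma4 (-0.51) and Psma6 (-0.16) completed the alpha ring with overlapping groups, and Psma4 had an unadjusted p of 0.0396 in edgeR's test. With the length and GC trends removed, the values were -0.22 for Psma3, -0.12 for Psma5, -0.115 for Psma7, -0.26 for Psmb2 and -0.20 for Psma4.

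Before removal of the length and GC trends, the 3 catalytic subunits showed smaller differences than the core genes without overlap. Psmb5, which carries the chymotrypsin-like site, had 359, 331 and 275 CPM in KO and 410, 333 and 429 CPM in control libraries. Psmb6, of the caspase-like site, had 449, 497 and 390 CPM in KO and 523, 417 and 642 CPM in control libraries. Psmb7, of the trypsin-like site, had 325, 311 and 299 CPM in KO and 326, 268 and 347 CPM in control libraries. The groups overlapped in all 3. Their log2 fold changes were -0.28 (SE 0.18), -0.24 (SE 0.20) and -0.01 (SE 0.16), with edgeR adjusted p-values of 0.626, 0.738 and 0.994. Psmb1, a beta subunit without a catalytic site, stood at -0.07 (SE 0.19). With the length and GC trends removed, Psmb5 stood at -0.20, Psmb6 at -0.15 and Psmb7 at 0.27. Psmb5 and Psmb6 then lay within the range of the core genes without overlap, from -0.115 for Psma7 to -0.26 for Psmb2. The sign of Psmb1 and Psmb7 changed with the processing.

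The core paralogues of other tissues were low. Psma8, the alpha subunit known from the testis, had 24.2, 16.6 and 9.97 CPM in KO and 43.5, 31.1 and 5.59 CPM in control libraries. Its log2 fold change was -0.66 (SE 0.70), the largest of the alpha genes and the least certain of all members. Control replicate 3 held the least, below every KO library, and without it the log2 fold change was -1.14 at an edgeR unadjusted p of 0.0356. Psmb11, the beta subunit known from the thymus, had 0, 5 and 0 counts in KO libraries and 0 counts in each control library, and did not pass the filter. A count of 0 allows up to 3 counts, or 0.0440 to 0.0539 CPM per library, for counting error alone.

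All 6 ATPase genes of the base, Psmc1 to Psmc6, were below 0, with a median of -0.50, and 4 of 6 were lower at an unadjusted p under 0.05 without overlap. Psmc2 had 243, 190 and 176 CPM in KO and 374, 320 and 286 CPM in control libraries. Psmc4 had 197, 159 and 150 CPM in KO and 273, 279 and 230 CPM in control libraries. In both, the highest KO library, replicate 1, lay below the lowest control library, replicate 3. The log2 fold changes were -0.68 (SE 0.19) for Psmc2 and -0.63 (SE 0.17) for Psmc4, each with an edgeR adjusted p = 0.297. Psmc1 had 225, 192 and 165 CPM in KO and 268, 310 and 257 CPM in control libraries, for a log2 fold change of -0.52 (SE 0.18). Psmc3 had 215, 182 and 216 CPM in KO and 269, 335 and 254 CPM in control libraries, for one of -0.49 (SE 0.17). Unlike in the core genes above, the library labelled control replicate 2 was the highest of all libraries in Psmc1, Psmc3 and Psmc4. Psmc5 and Psmc6 stood at -0.42 and -0.41 with overlapping groups. After removal of the length and GC trends Psmc2 stood at -0.40, Psmc4 at -0.37, Psmc3 at -0.27, Psmc1 at -0.24, Psmc6 at -0.18 and Psmc5 at -0.14.

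Of the other base subunits, Psmd4 had the largest difference. It encodes a receptor that binds ubiquitin chains, and had 207, 173 and 193 CPM in KO and 312, 334 and 277 CPM in control libraries. The highest KO library lay well below the lowest control library, and the log2 fold change was -0.69 (SE 0.16, edgeR adjusted p = 0.255), or -0.47 without the length and GC trends. The large scaffold subunits differed less. Psmd1 stood at -0.30 (SE 0.20) and Psmd2 at -0.18 (SE 0.24), and Psmd2 was higher only in the library labelled control replicate 2, with 221 CPM, against 131 to 146 CPM in KO and 123 to 134 CPM in the other control libraries.

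The 8 lid genes under the naming rule were all below 0, with a median of -0.33. Genes of the regulatory particle with other names are counted among the companions below, which were split in direction. Psmd12 and Psmd7, structural subunits, were lower at an unadjusted p under 0.05. Psmd12 had 115, 134 and 150.1 CPM in KO and 214, 180 and 161 CPM in control libraries, and Psmd7 had 281, 220 and 236 CPM in KO and 368, 314 and 318 CPM in control libraries. Neither overlapped, and the log2 fold changes were -0.47 (SE 0.18, edgeR adjusted p = 0.407) and -0.44 (SE 0.16, edgeR adjusted p = 0.398). Psmd14, the deubiquitinating enzyme of the lid, had 291, 282 and 212 CPM in KO and 338, 294 and 351 CPM in control libraries. Psmd6 had 210, 165 and 130 CPM in KO and 241, 218 and 235 CPM in control libraries. The gap between the groups was narrow in both, and their log2 fold changes were -0.33 (SE 0.18) and -0.46 (SE 0.20). Psmd8 (-0.34), Psmd11 (-0.28), Psmd13 (-0.16) and Psmd3 (-0.10) overlapped. Without the length and GC trends the lid genes lay nearer to 0, with Psmd12 at -0.17, Psmd7 at -0.14, Psmd6 at -0.17 and Psmd14 at -0.0175.

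**Figure D3:**
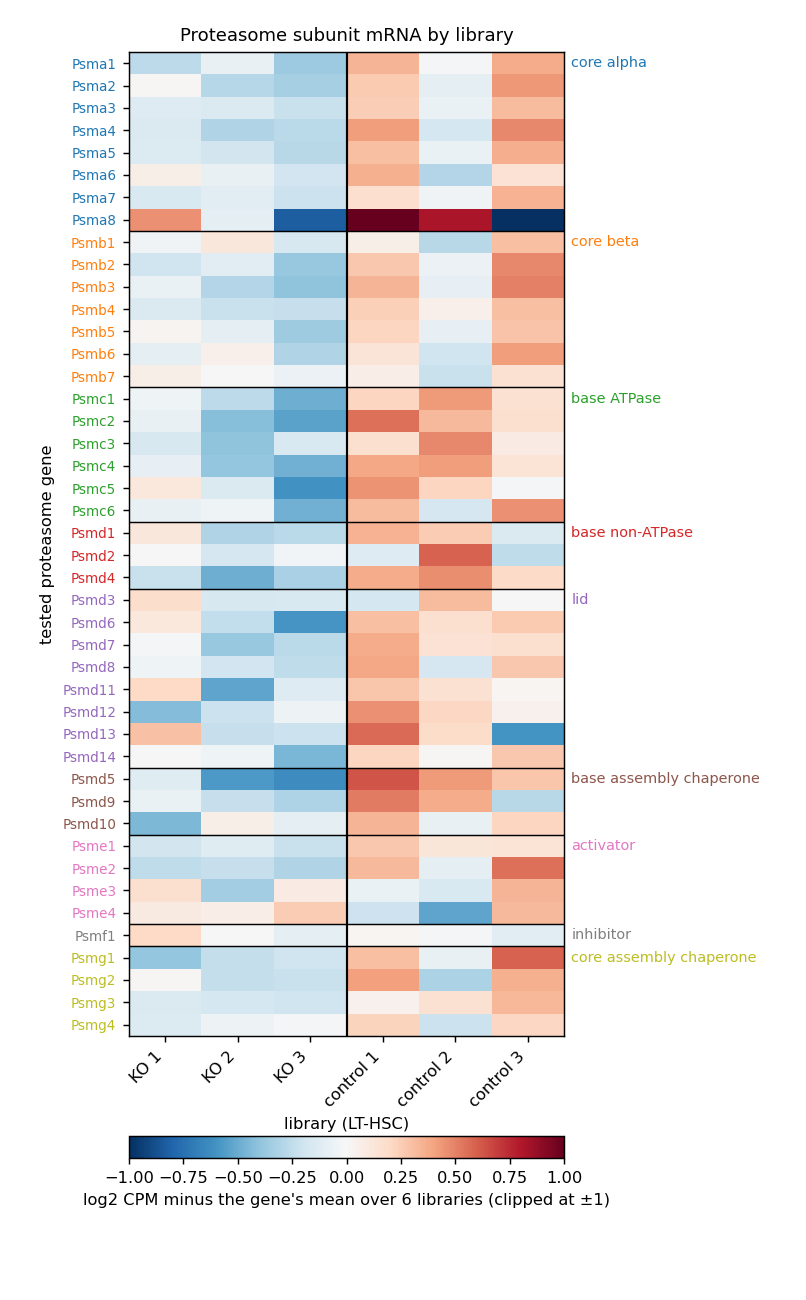
Log2 CPM of each tested member minus its mean over the 6 libraries, clipped at 1 in either direction, with KO libraries in the left columns, control libraries in the right columns and roles set apart by lines. Control replicate 3 is the highest library in 13 of 15 core genes, and the library labelled control replicate 2 is the highest in 3 of 6 ATPase genes.

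Among the assembly factors, Psmd5 had the largest difference of all 44 members. Psmd5 is a chaperone of the base ATPases, and had 113, 82.2 and 79.2 CPM in KO and 190, 165 and 148 CPM in control libraries. Every KO value lay below every control value, and the log2 fold change was -0.88 (SE 0.20, edgeR adjusted p = 0.255), a level 45.5% lower in KO. After the length and GC trends were removed it was -0.99 (edgeR adjusted p = 0.243). The other base chaperones overlapped, with log2 fold changes of -0.44 for Psmd9 and -0.31 for Psmd10. Of the core chaperones, Psmg1 had 133, 148 and 152 CPM in KO and 215, 166 and 263 CPM in control libraries, without overlap, for a log2 fold change of -0.57 (SE 0.20, edgeR adjusted p = 0.381). Psmg3 had 91.0, 89.4 and 87.8 CPM in KO and 104, 112 and 127 CPM in control libraries, also without overlap, for -0.35 (SE 0.16). Psmg2 (-0.33) and Psmg4 (-0.15) overlapped. Without the length and GC trends Psmg1 stood at -0.32, Psmg3 at -0.27, Psmg2 at -0.0404 and, of the base chaperones, Psmd9 at -0.31 and Psmd10 at 0.0242.

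The activators were split. Psme1 and Psme2 form the activator that interferon is known to induce. Psme1 had 428, 445 and 416 CPM in KO and 585, 528 and 532 CPM in control libraries. Psme2 had 279, 283 and 270 CPM in KO and 417, 311 and 488 CPM in control libraries. Neither overlapped, and the log2 fold changes were -0.35 (SE 0.14, edgeR adjusted p = 0.407) and -0.55 (SE 0.19, edgeR adjusted p = 0.380), or -0.16 and -0.33 without the length and GC trends. The nuclear activator gene Psme3 had 88.8, 62.4 and 84.2 CPM in KO and 76.0, 71.5 and 101 CPM in control libraries. Psme4, whose product binds the core without the regulatory particle, had 67.0, 65.7 and 75.1 CPM in KO and 54.5, 43.8 and 78.7 CPM in control libraries. Both overlapped, at -0.08 (SE 0.22) and 0.23 (SE 0.25). Psmf1, an inhibitor of the core in the test tube, had 78.9, 68.8 and 64.2 CPM in KO and 69.9, 68.3 and 63.8 CPM in control libraries, for 0.07 (SE 0.17). Psme4 and Psmf1 were the 2 members above 0, and neither differed beyond the spread of its libraries. Their sign turned in some alternatives, to -0.0121 for Psme4 after removal of the length and GC trends and to -0.0387 for Psmf1 without KO replicate 1.

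The roles differed in which control library was close to the KO libraries. Each gene's log2 CPM was set relative to its mean over the 6 libraries and averaged over a role. For the 14 core genes other than Psma8, the averages were -0.09, -0.12 and -0.27 in KO replicates 1 to 3, against 0.24, -0.12 and 0.35 in control replicates 1 to 3. The library labelled control replicate 2 thus lay inside the KO range. For the 6 ATPase genes the averages were -0.06, -0.28 and -0.46 in KO, against 0.35, 0.28 and 0.16 in control libraries, with no overlap. For the 8 lid genes they were 0.03, -0.25 and -0.27 in KO, against 0.30, 0.12 and 0.05 in control libraries. The average of the 4 core chaperone genes followed the core, with -0.17, -0.17 and -0.16 in KO and 0.24, -0.11 and 0.37 in control libraries. Psmg3 alone did not, with 0.15 in the library labelled control replicate 2 and 0.04 in control replicate 1. In Psmg1, Psmg2 and Psmg4 the library labelled control replicate 2 was the lowest control library.

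The balance of base and lid over core varied more among control than among KO libraries. The balance was taken over the 17 base and lid genes under the naming rule. Their average minus that of the 14 core genes was 0.08, -0.15 and -0.05 in KO, against 0.05, 0.35 and -0.28 in control libraries. The KO values lay between those of the library labelled control replicate 2 and control replicate 3, so the groups overlapped in this balance. Control replicate 3 was also the library with the most granulocyte transcripts (11740 CPM of the 10 markers, against 120.2 to 1157 CPM in KO and 176 to 222 CPM in the other control libraries), and their part in its high core values was not tested. Without control replicate 3 the median over all members was -0.34 and 39 of 44 were below 0. KO replicate 1 held the most erythroid transcripts of the 6 libraries, 26440 CPM of the 10 markers, against 10070 and 8327 CPM in the other KO libraries and 2642 to 7736 CPM in control libraries. It was also the KO library nearest to the controls in the members, with an average over all members of -0.05, against -0.19 and -0.27 in the other KO libraries and 0.29, 0.06 and 0.17 in control libraries. The part of erythroid transcripts in the members' values was not tested, and without KO replicate 1 the median over the members was -0.45.

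**Figure D4:**
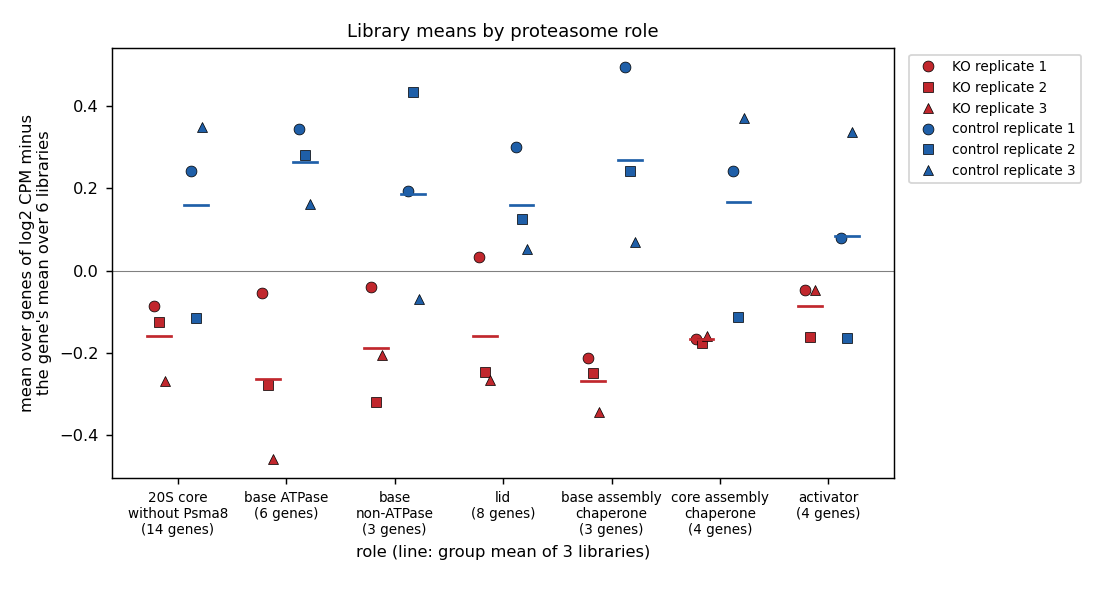
Mean over the genes of each role of log2 CPM relative to the gene's mean over 6 libraries, 1 point a library, with KO left of control and lines at group means. In the means of the core and core chaperone genes the library labelled control replicate 2 sits beside the KO libraries. In the mean of the ATPase genes all 3 control libraries lie above the KO libraries.

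Levels of different genes were compared as CPM per kilobase of the principal transcript in GENCODE vM21, which may not be the form these cells use. Core genes held 13 of the first 15 places on this scale, beside Psme1 and Psme2. Psma7 led with 627 CPM per kilobase in KO and 788 in control libraries, and Psmb6, Psmb2 and Psmb3 followed with 558, 496 and 490 in KO and 661, 688 and 701 in control libraries. The 14 core genes, whose products stand in equal number in the particle, spanned a 3.65-fold range in KO and a 3.46-fold range in control libraries, with Psma2 lowest at 172 in KO and 228 in control libraries. The 6 ATPases, also present in equal number, lay closer together, from 102 (Psmc6) to 125 (Psmc3) in KO and from 136 (Psmc6) to 183 (Psmc2) in control libraries. Psme4 and Psma8 were the lowest, with Psme4 at 10.7 in KO and 9.08 in control libraries. These 15 genes were the same in both groups, and Psmd4 held place 21 in KO and 16 in control libraries.

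**Figure D5:**
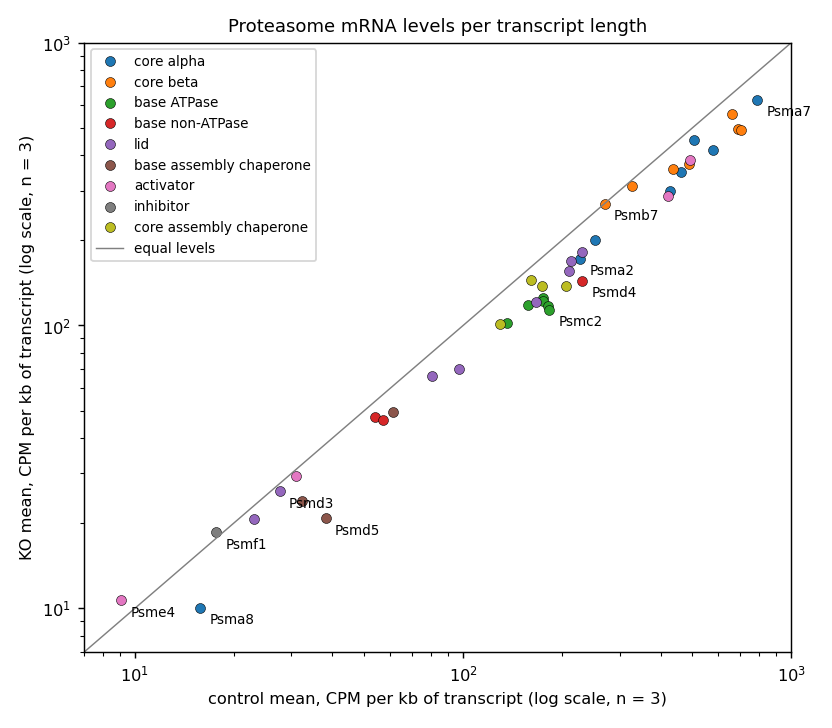
Mean level of the 44 tested members in CPM per kilobase of transcript, KO on the vertical and control on the horizontal log axis, coloured by role. Most points lie below the line of equal levels, Psmb7 lies on it at 269 in KO and 270 in control libraries, and Psmf1 and Psme4 lie above it.

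Counts of some members can hold reads of copies elsewhere in the genome. Of the stretches of 50 bases in the principal transcript, the share also present in a transcript of another gene was 59.3% for Psme2 (all of it in Psme2b), 57.1% for Psmb5, 55.8% for Psmb3, 55.4% for Psma5 and 31.5% for Psma4, and it was 0% for Psma1, Psmb4, Psmc2, Psmc4 and Psmd4 and 0.644% for Psmd5. Psmb7 shared 28.1% with Nek6 on the opposite strand. Of 3 rows named after members, Psme2b had 73.8, 70.8 and 63.6 CPM in KO and 108, 80.9 and 122 CPM in control libraries. Psma5-ps had 46.7, 44.7 and 38.5 CPM in KO and 68.1, 53.4 and 65.9 CPM in control libraries, while Psmb5-ps was at 0 in all libraries. The gene sharing most was Gm8394 for Psma5 (37.2%) and Gm3375 for Psmb5 (49.4%), so these last 2 rows need not hold the shared stretches. Shares were 26.4% for Psmd2, 22.7% for Psmg3, 22% for Psma3, 18.9% for Psmd11, 17.6% for Psmc1, 15.8% for Psmd13 and 14.1% for Psme1. The values of all these members with shared stretches, Psmd5 apart, are uncertain for this reason.

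The 3 immunoproteasome genes, which interferon induces in place of the constitutive catalytic subunits, did not overlap and were lower in KO. KO libraries lay below all control libraries in 8.76% of all tested genes and in 18.4% of those averaging over 50 CPM. Psmb8 had 479, 454 and 427 CPM in KO and 732, 626 and 606 CPM in control libraries, for a log2 fold change of -0.53 (SE 0.15, edgeR adjusted p = 0.297). Psmb10 stood at -0.55 (SE 0.19, edgeR adjusted p = 0.378) and Psmb9 at -0.31 (SE 0.15, edgeR adjusted p = 0.514). Over the alternative settings Psmb8 ranged from -0.59 to -0.35, Psmb10 from -0.76 to -0.41 and Psmb9 from -0.39 to -0.11. Their constitutive counterparts are Psmb5, Psmb7 and Psmb6, whose groups overlapped, and the difference between the 2 sets was not tested.

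Genes that act with the proteasome were split in direction. Among the 13 companions of the particle that were tested, 6 lay below 0, with a median of 0.00. Counting those with an unadjusted p below 0.05, 1 was higher and 0 were lower, against 5.44% and 5.59% of all tested genes. The higher companion was Zfand5, which encodes a ubiquitin-binding activator of the proteasome. It had 178, 169 and 183 CPM in KO and 104, 111 and 83.8 CPM in control libraries. All KO libraries lay far above the control libraries, and the log2 fold change was 0.83 (SE 0.16, edgeR adjusted p = 0.255). Usp14, a deubiquitinase on the particle, and Txnl1, a thioredoxin-like protein bound to it, stood at -0.32 (SE 0.16) and -0.34 (SE 0.17) without overlap. The companions Akirin2, Uchl5 and Fbxo7, stood at 0.69, -0.39 and -0.39 with overlapping groups.

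Of 11 shuttle and p97 genes, 6 were below 0, with a median of -0.05. At an unadjusted p under 0.05, 1 was higher, where 5.44% of all tested genes were. Ubqln2, a shuttle that carries ubiquitinated proteins to the proteasome, had 46.6, 53.5 and 48.4 CPM in KO and 10.7, 20.6 and 23.3 CPM in control libraries. The groups were far apart, and the log2 fold change was 1.44 (SE 0.33, edgeR adjusted p = 0.255). The shuttle gene Rad23b stood at 0.73 (SE 0.36), Bag6 at 0.61 (SE 0.30), Ubqln1 at 0.36, Faf1 at -0.30 and Ufd1 at -0.24, all with overlap. Of the 6 genes of ubiquitin supply and activation, 3 were below 0, with a median of 0.06 and 0 past an unadjusted p under 0.05 in edgeR's test. Uba6, a ubiquitin-activating enzyme, had 48.4, 58.6 and 48.3 CPM in KO and 23.0, 33.2 and 43.4 CPM in control libraries, without overlap, for 0.64 (SE 0.28). The ubiquitin genes Ubb and Rps27a stood at -0.31 and 0.22, and Uba1, another ubiquitin-activating enzyme, at -0.04.

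Of 14 factors listed for transcription of proteasome genes, 3 were below 0, with a median of 0.38. An unadjusted p under 0.05 was reached by 3 that were higher and 2 that were lower, against 5.44% and 5.59% of all tested genes. Nfe2l1 itself had 24.9, 17.8 and 27.6 CPM in KO and 10.5, 16.001 and 14.7 CPM in control libraries. All KO libraries were above all control libraries, with a log2 fold change of 0.77 (SE 0.32, edgeR adjusted p = 0.448), opposite in sign to the proteasome genes. Bach1, a repressor at antioxidant response elements, had 47.2, 43.6 and 39.3 CPM in KO and 14.2, 19.2 and 23.8 CPM in control libraries, for 1.19 (SE 0.27, edgeR adjusted p = 0.255). Nfe2l2, an activator at the same elements, went the other way at -0.81 (SE 0.15, edgeR adjusted p = 0.255). Of the subunits of the factor that binds the CCAAT box, Nfya stood at 0.95 (SE 0.34) with 16.1, 17.7 and 19.1 CPM in KO and 8.09, 7.56 and 11.7 CPM in control libraries. Nfyc stood at -0.67 (SE 0.19) with 46.0, 38.4 and 49.4 CPM in KO and 76.6, 62.3 and 73.3 CPM in control libraries. Both were without overlap, in opposite directions. Maf was low and variable, with 0.252, 2.82 and 4.47 CPM in KO and 0.0495, 0.791 and 1.04 CPM in control libraries, and its groups overlapped. DESeq2 placed 5 of the genes named from these lists past an adjusted p under 0.05: Nfe2l2 (adjusted p = 0.000350), Zfand5 (0.00195), Ubqln2 (0.00562), Bach1 (0.0105) and Psmb8 (0.0105). Of all genes, it called 1.92% lower and 1.64% higher, and the named genes are those with the smallest p of each list.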

How the data were processed

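Per the labels' protocols, LT-HSC RNA came from TRIZOL extraction, and a TruSeq RNA kit was used for the libraries. The authors deposited raw counts, whole numbers for each gene, with a separate table for every library. Genome build mm10, featureCounts 1.6.4 and HISAT2 2.1 are named, with no role or settings, in the submitters' processing notes, as are cutadapt 1.16.5 and DESeq2 2.11.40.6. Strand and the treatment of multiply mapped reads are not given in the sources used here, so reads of a gene, its copies and its antisense partner may be mixed. Part of the row names (2046) are of the kind an assembler gives.

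The test was edgeR 4.0.16's quasi-likelihood one (R 4.3.3), fitted to the 6 libraries after filterByExpr and scaling by trimmed mean of M values, with Benjamini-Hochberg adjustment over all tested genes and a threshold of 0.05. The SE is the absolute log2 fold change over the square root of F, so it is not independent of the test. Log2 CPM used a prior count of 2. The steps were tested on simulated data. Alternatives were other scalings and filters, DESeq2 1.42.0, limma-voom (limma 3.58.1), a block for the replicate number, leaving out each library, and removal of loess trends on transcript length and GC content (89.5% of tested genes and 100% of tested members had both). The members and lists were chosen with earlier results of these data known. Values per library are given for the catalytic genes, the 10 members with the smallest p, members without overlap and the largest change of each role; Psme3 and Psme4 were added after their values were seen. Up to 6 genes per pathway list are named. All pairs of libraries differed beyond sampling noise (chi-square per gene at least 132). Some genes of these lists are not reported here by name.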

Additional observations from a re-analysis of the deposited data

How the results depend on the processing

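The median log2 fold change of the members lay between -0.45 and -0.30 with each library left out and between -0.39 and -0.35 under the other alternatives except removal of the length and GC trends, which gave -0.17. Members lower at an unadjusted p under 0.05 were 17 in the edgeR test, 14 to 23 under other scalings, filters and tools, 5 after removal of the length and GC trends, and 5 to 21 with each library left out (7 without control replicate 1, 9, 5 and 7 without KO replicates 1, 2 and 3). Members higher were 0 to 1 with a library left out: Psme4 without control replicate 3. Members without overlap were 15 to 20 under other scalings and a stricter filter, and 20 to 32 with a library left out (32 without control replicate 2). Groups with fewer libraries overlap less readily, and the share of all tested genes without overlap is not given for these settings. A rise in this count therefore cannot be read as a clearer difference. Past the adjusted threshold, DESeq2 called 4 members lower, and 244 genes higher and 286 lower in all; 1 gene was lower with a filter of 5 CPM in 3 libraries, and 0 to 1 higher with a library left out. At an unadjusted p under 0.05, all genes higher were 562 to 1339 and lower 573 to 1299 with a library left out. Between 16832 and 17121 genes were tested in these fits.

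The replicate numbers pair the samples by no label. The correlations of deviations from the group means were 0.04, 0.02 and 0.03 for the same number, under 0.1, although every library correlated best with its own number. With the replicate number as a block, 7 members were lower at an unadjusted p under 0.05. The median was then -0.35 over the members and 0.09 over all tested genes. The share of all tested genes that were lower at this p was then below the 5.59% of the main test. It was also smaller than the share of the members.

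Some members, and the listed genes Ufd1, Rps27a and Uba1, changed sign, and the cause was not tested. With length and GC trends removed, Psma6 stood at 0.12, Psmb1 at 0.22, Psmb7 at 0.27, Psmd13 at 0.086, Psmd10 at 0.0242, Psme3 at 0.0173, Psme4 at -0.0121 and Ufd1 at 0.0056. With limma-voom Psmb7 stood at 0.003. With each library left out, Psmb1 ranged from -0.231 to 0.0718, Psmb7 from -0.132 to 0.0707, Psmd2 from -0.34 to 0.10, Psmd13 from -0.42 to 0.12, Psmd3 from -0.230 to 0.0297, Psme3 from -0.194 to 0.0886, Psmf1 from -0.0387 to 0.118, Rps27a from -0.0587 to 0.608 and Uba1 from -0.19 to 0.10. Depth does not limit the members: every tested member held at least 311 counts in every library.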
